A study of Homo sapiens with 6 samples.

Results

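The genes described here are those of 6 matrix metalloproteinases (MMP1, MMP2, MMP3, MMP9, MMP14 and MMP15), 3 tissue inhibitors of metalloproteinases (TIMP1, TIMP2 and TIMP3) and basigin (BSG). They were chosen by symbol, and each of the 10 matched 1 of the 60612 rows of the deposited gene table. Transcript levels were measured by RNA sequencing in ARPE-19, an established human cell line of retinal pigment epithelium origin, after transfection with miR-204-5p (3 libraries) or with the control named miR-NC (3 libraries). The study asked which transcripts could be targets of miR-204-5p. All libraries came from the same cell line, and no source used here states the dose, the time after transfection or the sequence of the control. The submitters call the replicates biological. No label ties a library to a culture, so p-values measure the spread between these libraries only.

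Matrix metalloproteinases are zinc enzymes that cut collagens, laminins and other proteins of the extracellular matrix. They are made as inactive proenzymes, and the TIMPs bind the active site and block it. Basigin, also called EMMPRIN or CD147, is a membrane glycoprotein known to induce metalloproteinases in neighbouring cells and to escort lactate transporters to the cell surface. In the eye, the retinal pigment epithelium rests on Bruch's membrane, whose turnover depends on these enzymes and inhibitors, and mutations of TIMP3 cause Sorsby fundus dystrophy. A microRNA lowers a transcript mainly through pairing of its seed, bases 2 to 8, with the 3' UTR.

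The mature microRNA is shown with its seed in capitals, since the sites that follow are matched to it. It is encoded on chromosome 9 (70810031 to 70810052, minus strand, GRCh38.p14, RefSeq).
hsa-miR-204-5p: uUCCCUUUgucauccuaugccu

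The longest annotated 3' UTR of each of the 10 genes (GENCODE release 29, GRCh38) was searched on the transcribed strand for 4 classes of seed match. The 6mer is AAGGGA, the 7mer-A1 adds an A at its end to give AAGGGAA, the 7mer-m8 adds an A at its start to give AAAGGGA, and the 8mer adds both to give AAAGGGAA. The longer classes contain the shorter ones, and each match was counted once, in its longest class. None of the 10 genes held an 8mer, which 8.6% of 10835 tested genes with a UTR held. MMP2, MMP14, TIMP1 and BSG held no match of any class, in UTRs of 1249, 1722, 609 and 780 bases. The other 6 genes held 7 matches, shown with their match in capitals and neighbouring bases in lower case, 5′ to 3′ on the transcript.
MMP1 6mer: cctggataggcAAGGGAtaactcttctaac
MMP3 7mer-A1: gagtcacactcAAGGGAActtgagcgtgaa
MMP9 7mer-m8: tgttctggaggAAAGGGAggagtggaggtg
MMP15 6mer: aggggacctggAAGGGAggtgggccgtggc
MMP15 7mer-m8: caccacggaccAAAGGGAgtctgccagggc
TIMP2 7mer-A1: tccagcctaggAAGGGAAggattttggagg
TIMP3 6mer: cactggttttgAAGGGAtgagcccagactt

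On GRCh38 the match of MMP1 lies at chr11:102789986-102789991 and that of MMP3 at chr11:102835999-102836005, both on the minus strand. That of MMP9 lies at chr20:46016471-46016477, and those of MMP15 at chr16:58045932-58045937 and chr16:58046152-58046158, all on the plus strand. TIMP2 has its match at chr17:78854563-78854569 (minus) and TIMP3 at chr22:32861423-32861428 (plus). Among tested genes whose UTR was within 20% of the same length, any match was present in 14% for MMP1, 9.2% for MMP3, 6.3% for MMP9, 40.2% for MMP15, 61.4% for TIMP2 and 69.5% for TIMP3. Any match was present in 39.8% of all tested genes with a UTR. An 8mer or 7mer-m8 was present in 2.3% of UTRs of about the length of that of MMP9 and in 14.6% for MMP15. A match is a string of letters and was not tested as a binding site.

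None of the 10 genes passed the test for a difference between miR-204-5p and miR-NC. MMP1, the interstitial collagenase, had the highest log2 fold change of the 9 genes tested and was the only one whose libraries did not overlap between the groups. Basigin and TIMP1 had the highest levels, and both varied more between libraries of the same treatment than between treatments. MMP9, gelatinase B, was at or near 0 in all libraries and was not tested.

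The libraries split in a way that crossed the treatments. Replicates 1 and 3 of miR-204-5p and replicate 3 of miR-NC lay together below all of the other libraries in 33.2% of the 13151 genes tested, and above all of them in 16.2%. Of the 9 genes, MMP14, TIMP2 and TIMP3 were below in those 3 libraries and TIMP1 and BSG above. The split was seen in the values and not in the labels, and its part in the differences between treatments was not tested. Since 2 of the 3 are miR-204-5p libraries, a gene that follows the split can, but need not, have different means in the treatments.

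Levels are given as FPKM, read fragments per kilobase of gene model relative to all those mapped, a scale that allows genes of different length to be compared. Ordered by the mean over all 6 libraries, BSG stood at 317 FPKM, TIMP1 at 257, MMP14 at 208, TIMP2 at 44.2, TIMP3 at 42.0, MMP15 at 38.6, MMP3 at 7.52, MMP1 at 4.13, MMP2 at 4.01 and MMP9 at 0.020. The steps between MMP14 and TIMP2, between MMP15 and MMP3, and between MMP2 and MMP9 separated the ranges of the neighbours fully. Within the upper block BSG was above TIMP1 in 6 of 6 libraries, while TIMP1 was above MMP14 in only 3 of 6. TIMP2, TIMP3 and MMP15 were not distinct in level, and neither were MMP1 and MMP2, where each was the higher in 3 libraries. Among the 13151 genes tested, BSG lay at percentile 99.1 of level, TIMP1 at 98.9 and MMP14 at 98.6, against 55.3 for MMP1 and 54.8 for MMP2.

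**Figure D1:**
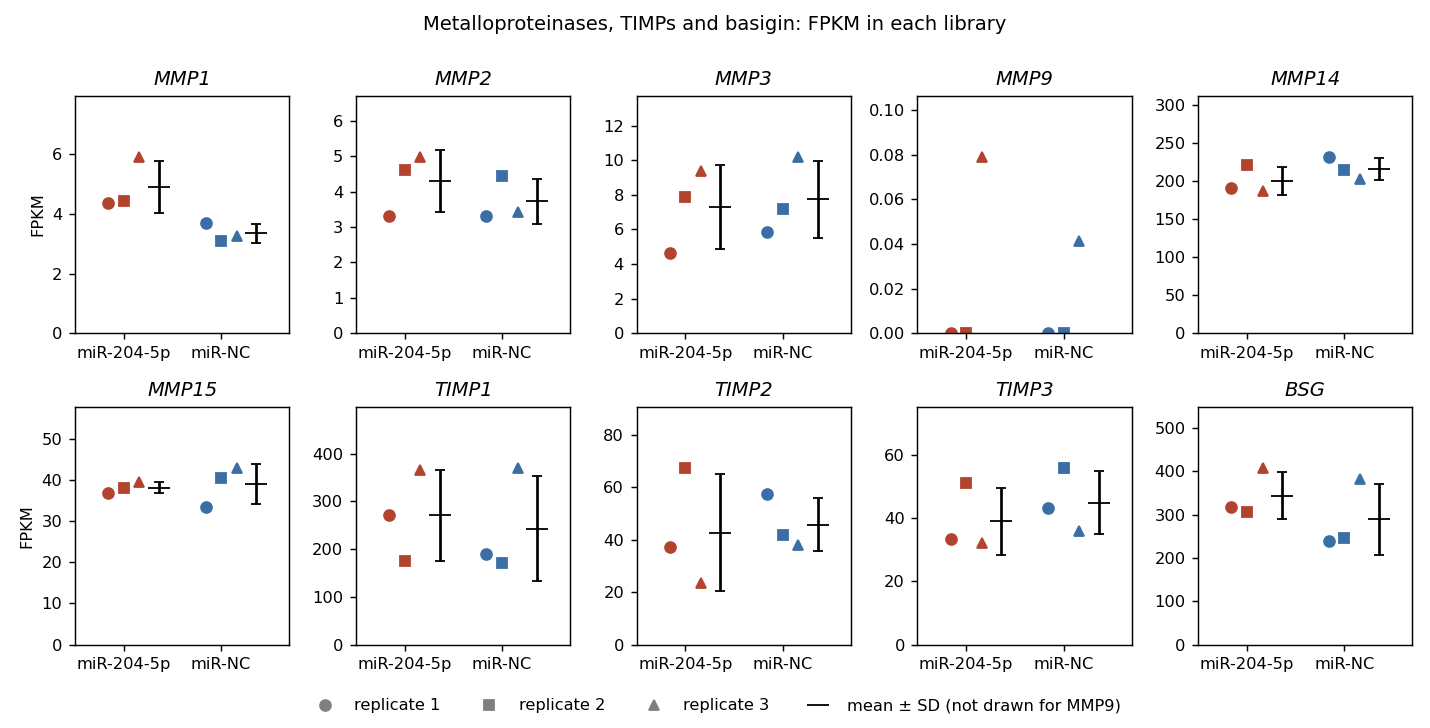
FPKM (vertical axes, linear, each from 0) of the 10 genes in each library, with miR-204-5p left of miR-NC. Symbols mark the replicate number and bars the mean ± SD of 3 libraries, left out for MMP9. MMP1 is the only gene with all miR-204-5p libraries (4.37 to 5.90) above all miR-NC libraries (3.08 to 3.70).

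The collagenase, stromelysin and gelatinases are secreted enzymes. MMP1 (ENSG00000196611, chr11:102789920-102798160, minus strand, GRCh38) cuts fibrillar collagens. It had 4.37, 4.45 and 5.90 FPKM in the miR-204-5p libraries, against 3.70, 3.08 and 3.26 FPKM in the miR-NC libraries. All miR-204-5p values were above all miR-NC values, and replicate 3 of miR-204-5p was the highest. The means were 4.91 ± 0.86 FPKM with miR-204-5p and 3.35 ± 0.32 FPKM with miR-NC (SD, n = 3 each), a ratio of 1.47. Computed on log2(FPKM + 1), where the added 1 shrinks the change of genes with low values, the log2 fold change was 0.44 (SE 0.18, 95% limits 0.01 to 0.86). Its unadjusted p was 0.0452 and the adjusted p = 1.00 (limma, Benjamini-Hochberg over all genes tested). An exact permutation test of the 6 values gave p = 0.1 (two-sided), the smallest that 3 against 3 allows.

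Of the 9 genes tested, MMP1 alone did not overlap, where 5.95% of all genes tested did not overlap in either direction and 3.77% were higher with miR-204-5p. MMP1 was also the only 1 of the 9 with an unadjusted p under 0.05, reached by 2.08% of all genes tested (1.16% higher and 0.92% lower with miR-204-5p). The share of all genes called at an adjusted p under 0.05 was 0%, and 273 genes had an unadjusted p under 0.05. Without replicate 3 of miR-204-5p the log2 fold change of MMP1 was 0.32, with an unadjusted p of 0.156 (limma). With median-of-ratios scaling it was 0.45, with an unadjusted p of 0.0530 (limma).

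Replicate 3 of miR-204-5p also stood apart in other transcripts. RN7SK, a small nuclear RNA without a poly(A) tail, had 361 FPKM there and between 5.24 and 14.5 FPKM in the other 5 libraries. The fibroblast collagen COL1A2 had 0.948 FPKM in that library and at most 0.0044 FPKM in any other, and LUM, a proteoglycan of fibroblasts, had 0.505 FPKM against at most 0.036. The 10 fibroblast markers summed to 21.7 to 26.1 FPKM in miR-204-5p libraries and 17.0 to 20.03 FPKM in miR-NC libraries. Most of each sum was ACTA2, with 16.5, 17.1 and 17.2 FPKM in miR-204-5p libraries, against 10.95, 13.2 and 13.4 FPKM in miR-NC libraries. FAP was not raised in replicate 3 of miR-204-5p, at 3.74 FPKM there and between 2.54 and 5.13 FPKM in the other libraries. PDGFRA, COL1A2, COL3A1, DCN, LUM, THY1 and POSTN were under 1 FPKM in every library. The part of these transcripts in the MMP1 values was not tested. In such bulk samples, fewer cells of a type and less RNA per cell cannot be told apart.

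MMP3 (ENSG00000149968, chr11:102835801-102843803, minus strand), stromelysin-1, cuts proteoglycans, laminin and basement membrane collagen, and activates other proenzymes. It had 4.66, 7.89 and 9.37 FPKM in miR-204-5p libraries, against 5.85, 7.18 and 10.2 FPKM in miR-NC libraries. In both groups replicate 3 was the highest and replicate 1 the lowest, and the groups overlapped. Its log2 fold change was -0.09 (95% limits -0.78 to 0.60). It ran from -0.27 to 0.17 over left-out libraries, so its direction was not fixed. MMP3 and MMP1 are neighbours on chromosome 11, yet the library with the lowest MMP3 of all, replicate 1 of miR-204-5p, had more MMP1 than any miR-NC library.

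MMP2 (ENSG00000087245, chr16:55389700-55506691, plus strand), gelatinase A, cuts denatured collagen and collagen IV. It had 3.31, 4.62 and 4.97 FPKM in miR-204-5p libraries, against 3.30, 4.45 and 3.42 FPKM in miR-NC libraries. The groups overlapped, with replicate 1 at the same level in both. The log2 fold change was 0.16 (95% limits -0.32 to 0.64), and it was 0.07 without replicate 3 of miR-204-5p. MMP9 (ENSG00000100985, chr20:46008908-46016561, plus strand) was listed at 0 in 4 libraries, with 0.079 FPKM in replicate 3 of miR-204-5p and 0.041 FPKM in replicate 3 of miR-NC. At the estimated depth these correspond to about 3.52 and 2.01 read pairs. MMP9 was below the filter and was not tested, and at this depth no difference was detectable.

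The membrane-bound enzymes were more abundant. MMP14 (ENSG00000157227, chr14:22836557-22849027, plus strand), also called MT1-MMP, cuts collagen at the cell surface and activates proMMP2 together with TIMP2. It had 192, 222 and 187 FPKM in miR-204-5p libraries, against 232, 215 and 202 FPKM in miR-NC libraries. Replicate 2 of miR-204-5p lay among the miR-NC values, and the other miR-204-5p libraries were below them. The log2 fold change was -0.11 (95% limits -0.49 to 0.26), and -0.23 after quantile normalization. MMP14 varied least between libraries of all 9 tested genes, by 1.24-fold from the lowest to the highest. MMP15 (ENSG00000102996, chr16:58025566-58046901, plus strand), MT2-MMP, is a related transmembrane enzyme. It had 37.0, 38.2 and 39.6 FPKM in miR-204-5p libraries, against 33.5, 40.6 and 42.9 FPKM in miR-NC libraries. The miR-204-5p values all lay inside the miR-NC range. Its log2 fold change was -0.02 (95% limits -0.39 to 0.35), and its UTR holds the 7mer-m8 and the 6mer shown above.

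TIMP1 (ENSG00000102265, chrX:47582313-47586789, plus strand) is a secreted inhibitor of most metalloproteinases, with weak action on the membrane-bound ones. It had 271, 175 and 365 FPKM in miR-204-5p libraries, against 189, 170.1 and 369 FPKM in miR-NC libraries. Replicate 3 was the highest in both groups and replicate 2 the lowest in both. The range within miR-204-5p libraries was 2.09-fold and within miR-NC libraries 2.17-fold, while the group means, 270.4 ± 95.4 FPKM with miR-204-5p and 243 ± 109.9 FPKM with miR-NC (SD, n = 3 each), had a ratio of 1.11. The log2 fold change was 0.18 (95% limits -0.72 to 1.08), and its direction turned without replicate 3 of miR-204-5p (-0.07) and without replicate 2 of miR-NC (-0.03).

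TIMP2 (ENSG00000035862, chr17:78852977-78925387, minus strand) inhibits metalloproteinases and also serves as the link between MMP14 and proMMP2. It had 37.4, 67.2 and 23.4 FPKM in miR-204-5p libraries, against 57.3, 41.9 and 38.0 FPKM in miR-NC libraries. The highest and the lowest value of all 6 libraries were both in the miR-204-5p group, a range of 2.87-fold that enclosed the miR-NC group. The log2 fold change was -0.20 (95% limits -1.10 to 0.69). It was -0.59 without replicate 2 of miR-204-5p and 0.15 without replicate 3 of miR-204-5p. TIMP3 (ENSG00000100234, chr22:32801701-32863043, plus strand) differs from the others in binding to the matrix itself. It had 33.5, 51.4 and 32.2 FPKM in miR-204-5p libraries, against 43.3, 55.8 and 35.9 FPKM in miR-NC libraries. Replicate 2 was the highest and replicate 3 the lowest in both groups. Each miR-204-5p library was below the miR-NC library of the same number, but no label ties such libraries together. The log2 fold change was -0.21 (95% limits -0.80 to 0.38), and it ran from -0.42 to -0.05 over left-out libraries.

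BSG (ENSG00000172270, chr19:571277-583493, plus strand) had 319, 307 and 407 FPKM in miR-204-5p libraries, against 239, 246 and 383 FPKM in miR-NC libraries. All miR-204-5p libraries were above replicates 1 and 2 of miR-NC, and replicate 3 of miR-NC lay between them. The log2 fold change was 0.28 (95% limits -0.29 to 0.84). Without replicate 3 of miR-NC it was 0.49 and the groups did not overlap, with an unadjusted p of 0.0490 and an adjusted p of 0.677 (limma). Without replicate 3 of miR-204-5p it was 0.15.

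**Figure D2:**
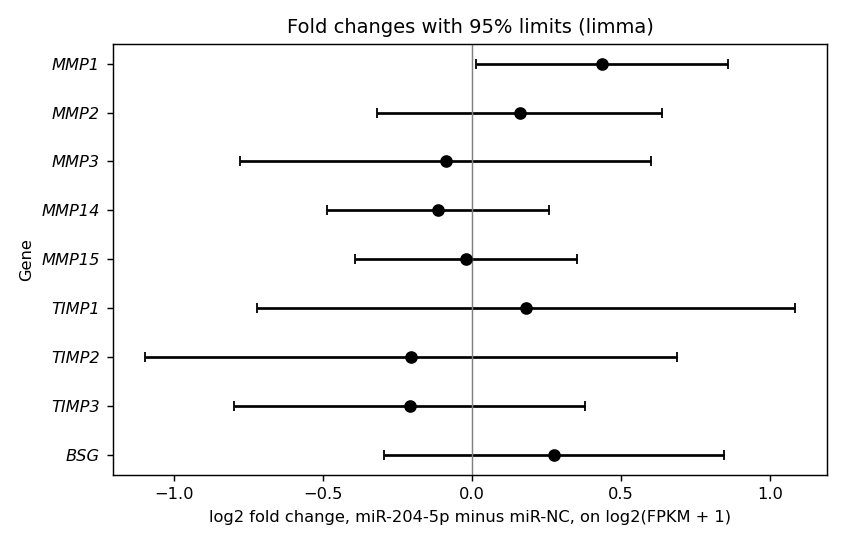
Log2 fold change of the 9 tested genes (horizontal axis, miR-204-5p minus miR-NC on log2(FPKM + 1)), with 95% limits from limma. The limits of MMP1, 0.01 to 0.86, lie just above 0, and those of the other 8 genes include 0. TIMP1 and TIMP2 have the widest limits.

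Of the 9 tested genes, 4 had positive and 5 negative log2 fold changes, with a median of -0.02. Over all genes tested the median was also -0.02, and 46.9% were positive. In the authors' deposited table, the q-value of each of the 10 genes was 1, and the smallest p of them was 0.199, for MMP1, with a fold ratio of 1.47. The same table gave MMP9 a p of 1 with a fold ratio of 1.91, computed from values near 0.

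The genes differed in which libraries were high. In the deviation of each gene from its own mean on the log2(FPKM + 1) scale, TIMP1 was at 0.59 in replicate 3 of miR-204-5p and 0.60 in replicate 3 of miR-NC. BSG was high in the same libraries, at 0.39 and 0.30. TIMP2 was at -0.81 and -0.14 there, and TIMP3 at -0.34 and -0.19. In replicate 2 of miR-204-5p the order was turned round, with TIMP1 at -0.47, TIMP2 at 0.67 and TIMP3 at 0.31. TIMP1 and BSG were high where TIMP2 and TIMP3 were low, in libraries of either treatment.

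**Figure D3:**
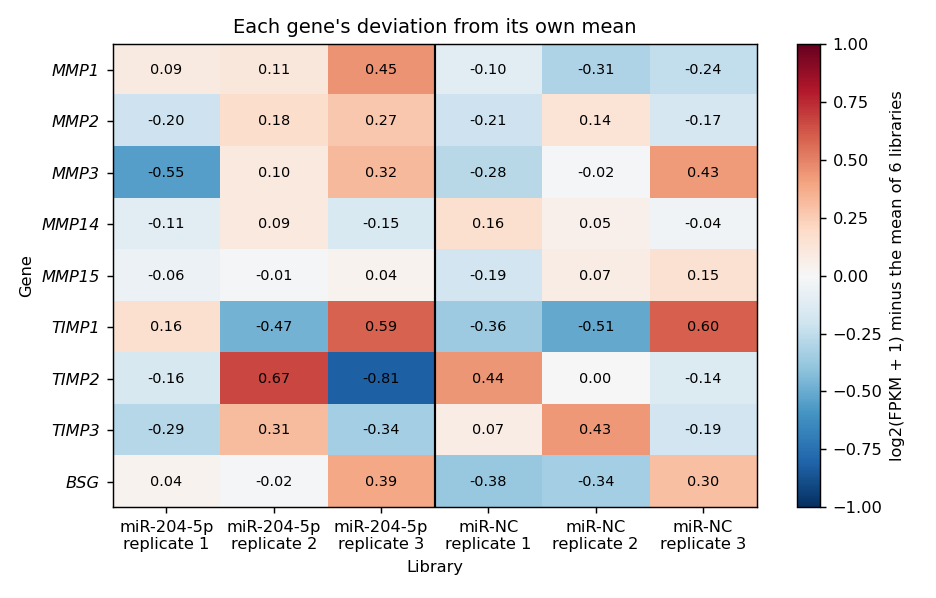
Deviation of log2(FPKM + 1) from the gene's mean over 6 libraries (colour and printed value) for the 9 tested genes (rows) in each library (columns, miR-204-5p left of the line and miR-NC right of it). TIMP1 and BSG are highest in replicate 3 of both treatments, where TIMP2 and TIMP3 are below their means. MMP1 is above its mean in all miR-204-5p libraries and below it in all miR-NC libraries.

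In sums over the 3 inhibitors, the miR-204-5p libraries held 342, 293 and 421 FPKM and the miR-NC libraries 289, 268 and 443 FPKM. The 6 metalloproteinases summed to 241, 277 and 247 FPKM in miR-204-5p libraries and to 278, 270.1 and 262 FPKM in miR-NC libraries. The inhibitor sum was 1.42, 1.06 and 1.71 times the enzyme sum with miR-204-5p, against 1.04, 0.992 and 1.69 times with miR-NC. The groups overlapped in that ratio. MMP14 made up 75.7% to 80.1% of the enzyme sum in miR-204-5p libraries and 77.2% to 83.3% in miR-NC libraries. TIMP1 made up 59.6% to 86.8% of the inhibitor sum with miR-204-5p, against 63.5% to 83.3% with miR-NC. The ratio of TIMP1 to TIMP2 was 7.25, 2.60 and 15.6 in miR-204-5p libraries and 3.29, 4.06 and 9.71 in miR-NC libraries. Its spread within each treatment exceeded the difference between them. These sums describe transcripts, not the amount or activity of the proteins.

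**Figure D4:**
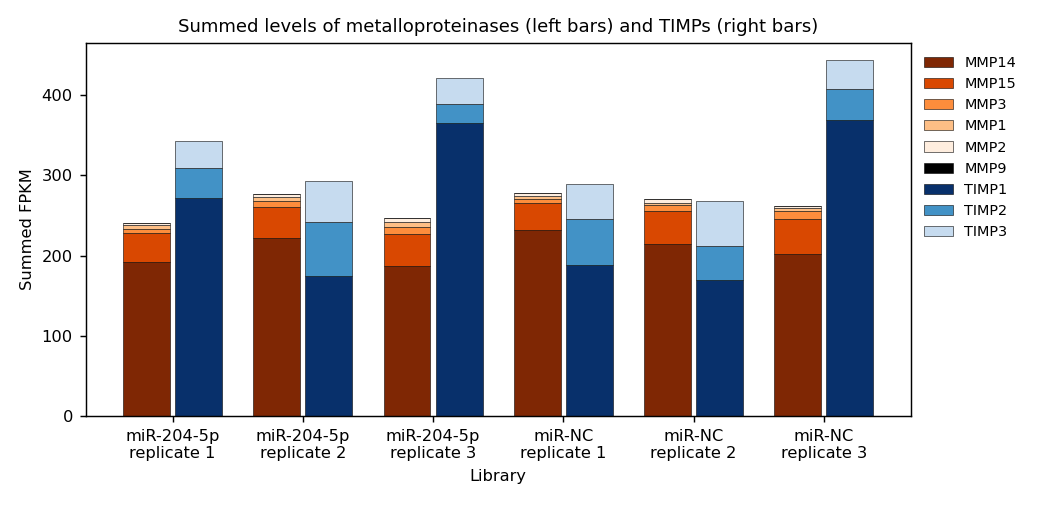
Summed FPKM (vertical axis, linear from 0) of 6 metalloproteinases (left bar of each pair) and 3 TIMPs (right bar) in each library, stacked by gene. The TIMP bars reach 421 FPKM in replicate 3 of miR-204-5p and 443 FPKM in replicate 3 of miR-NC. MMP14 fills most of every enzyme bar and TIMP1 most of every TIMP bar.

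Genes on the opposite strand were low beside most of these genes, but not beside MMP9. SLC12A5-AS1, antisense to MMP9, had 0, 0.157 and 0.047 FPKM in miR-204-5p libraries and 0, 0.153 and 0.285 FPKM in miR-NC libraries, more than MMP9 itself in replicate 2 of both treatments and in replicate 3 of miR-NC. SYN1, within which TIMP1 lies, was at most 0.028 FPKM, and SYN3, which encloses TIMP3, at most 0.056 FPKM. An antisense gene at BSG (ENSG00000267751) had 3.53, 2.69 and 1.95 FPKM in miR-204-5p libraries and 1.28, 1.62 and 3.00 FPKM in miR-NC libraries, far below BSG itself. No source used here says whether the counting used strand, so reads of such pairs may not have been told apart.

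Of 17 other metalloproteinase genes, only MMP16 and MMP24, both membrane-bound, passed the filter of 0.5 FPKM in 3 libraries, and 15 did not. MMP16 had a log2 fold change of 0.06 (95% limits -0.29 to 0.41), with an 8mer in its UTR. MMP24 had -0.05 (95% limits -0.59 to 0.50). Of 7 further genes grouped with inhibitors, among them PCOLCE, the procollagen C-endopeptidase enhancer, 5 were tested. All 5 were negative, where 46.9% of all genes tested were positive, and the 95% limits of all 5 included 0. RECK and SPOCK1 were below in the 3 libraries of the split described above (40.0%, beside 33.2% of all genes tested). The median log2 fold change of the 5 was -0.12, and 0 were called. TFPI2, a Kunitz-type inhibitor of the matrix, had -0.08 and the proteoglycan SPOCK1 had -0.23 (95% limits -0.92 to 0.45). TIMP4, the remaining TIMP, had 3.46, 3.66 and 4.70 FPKM in miR-204-5p libraries and 3.79, 4.19 and 5.11 FPKM in miR-NC libraries. Each TIMP4 value with miR-204-5p was below that of the same number with miR-NC, though no label makes these pairs. The groups overlapped (log2 fold change -0.12).

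The related ADAM and ADAMTS families had 0 called of 7 and 6 tested. In replicates 1 and 3 of miR-204-5p and replicate 3 of miR-NC, 4 of the 7 and 4 of the 6 were below all other libraries. These are 57.1% and 66.7%, beside 33.2% of all genes tested. ADAMTS1, ADAMTS9 and ADAMTS12 were among them, and ADAM12, ADAM15 and ADAM19 were not. The part of that split in the fold changes was not tested. ADAM15, a membrane disintegrin, had 73.4, 64.0 and 75.8 FPKM in miR-204-5p libraries, against 48.7, 56.0 and 58.0 FPKM in miR-NC libraries. ADAM12, whose UTR holds an 8mer, had 4.73, 7.66 and 5.49 FPKM with miR-204-5p, against 8.76, 10.3 and 7.74 FPKM with miR-NC. Neither overlapped between the groups, ADAM12 by a narrow gap. ADAM15 had a log2 fold change of 0.38 (95% limits 0.01 to 0.75) and ADAM12 one of -0.53 (95% limits -1.03 to -0.02). ADAM19, named after its values were seen, also holds an 8mer and had higher values with miR-204-5p, at 2.69, 2.67 and 2.56 FPKM, against 2.41, 2.27 and 1.74 FPKM with miR-NC (log2 fold change 0.22, 95% limits -0.17 to 0.61). ADAMTS12 had -0.06, ADAMTS9 had -0.11, and ADAMTS1 had -0.99 with limits of -2.86 to 0.89. It had 4.32, 9.63 and 0.223 FPKM in miR-204-5p libraries, against 9.99, 10.3 and 3.34 FPKM in miR-NC libraries. The value was -0.11 without replicate 3 of miR-204-5p and -1.67 without replicate 2 of miR-204-5p.

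The plasminogen system generates plasmin, an activator of several proenzymes, and furin and cathepsins act beside it. Of 16 genes of this system, its inhibitors and other proenzyme activators, 10 were tested, 0 were called, and 4 were positive. PLG, the gene of plasminogen itself, was at 0 in every library. PLAT, tissue plasminogen activator, had 10.3, 14.4 and 8.82 FPKM in miR-204-5p libraries, against 24.1, 19.9 and 22.9 FPKM in miR-NC libraries. The groups were well apart. PLAT had a log2 fold change of -0.96 (95% limits -1.45 to -0.47), with an unadjusted p of 0.00254 and an adjusted p = 1.00 (limma). The UTR of PLAT holds no match to the seed. CTSB, cathepsin B, had -0.05.

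Of 15 partners of basigin and related proteins, 13 were tested, 0 were called and 5 were positive. Of the 13, 8 were below and 4 above in replicates 1 and 3 of miR-204-5p and replicate 3 of miR-NC (61.5% and 30.8%). Among all genes tested these shares were 33.2% and 16.2%, and the part of that split in the fold changes was not tested. The cyclophilins PPIB and PPIA, ligands of basigin, had log2 fold changes of 0.15 and 0.06. CAV1, the main caveolin, had 56.7, 56.5 and 56.9 FPKM in miR-204-5p libraries, against 20.5, 27.2 and 60.8 FPKM in miR-NC libraries. As with BSG, replicate 3 of miR-NC stood far above the other miR-NC libraries, and for CAV1 it was above all miR-204-5p values. CAV1 had a log2 fold change of 0.79 (95% limits -0.10 to 1.67). SLC3A2, the CD98 heavy chain, had 0.38 (95% limits -0.23 to 1.00). Of 18 transcription factors known to act on metalloproteinase genes all were tested, 0 were called, and 13 were negative, with a median of -0.07. Of the 18, 8 were below and 1 above in the 3 libraries of that split (44.4% and 5.56%). EGR1 had -0.64 (95% limits -1.23 to -0.05) and SP1 had -0.56 (95% limits -1.12 to -0.0016), and both hold an 8mer. EGR1 overlapped between the groups and followed the split of libraries described above, while SP1 did neither. No 8mer was tested as a binding site. The AP-1 genes JUND and JUN had 0.15 and -0.13. Of 18 inducing ligands and receptors 15 were tested, 0 were called and 10 were negative, with a median of -0.19. Of the 15, 10 were below and 1 above in the same 3 libraries (66.7% and 6.67%). The part of the split in these medians was not tested. TGFB1 had 0.18, LIF -0.15, PDGFRB -0.39 and TGFBR2 -0.90 (95% limits -1.85 to 0.06). The UTR of TGFBR2 also holds an 8mer, and TGFBR2, PDGFRB and TGFB1 followed the same split of libraries.

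Among 16 matrix substrates 11 were tested, 0 were called, and 9 were negative, with a median of -0.23 against -0.02 for all genes tested. Of the 11, 8 were lower in replicates 1 and 3 of miR-204-5p and replicate 3 of miR-NC than in all other libraries (72.7%, beside 33.2% of all genes tested). Fibronectin (FN1) had 10.2, 22.5 and 10.7 FPKM with miR-204-5p, against 20.95, 24.5 and 8.39 FPKM with miR-NC. The part of that split in the list's median was not tested. SPARC, which did not follow it, is a collagen-binding glycoprotein with an 8mer. It had 174, 245 and 188 FPKM in miR-204-5p libraries, against 268, 289 and 265 FPKM in miR-NC libraries. Its log2 fold change was -0.45 (95% limits -0.88 to -0.02) and the groups did not overlap. The laminin chains LAMA5 and LAMB1 had -0.55 (95% limits -1.06 to -0.05) and -0.13. Both laminin chains followed the split of libraries and overlapped between the groups. Over all 12 lists beside the 10 genes, 99 of 167 genes were tested, 0 were called, 32 were positive and 67 negative, with a median of -0.11. Among all genes tested 46.9% were positive and the median was -0.02. The part of the split of libraries in these counts was not tested. In 3 of the 99 genes the miR-204-5p values were all higher than the miR-NC values and in 7 all lower, beside 3.77% and 2.17% of all genes tested.

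**Figure D5:**
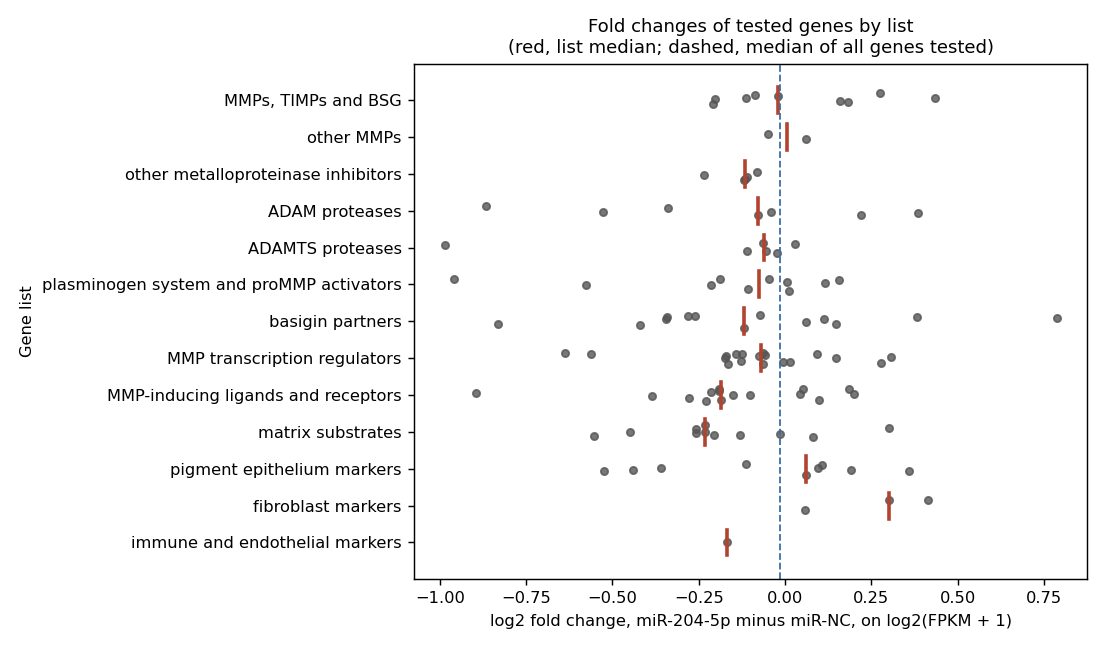
Log2 fold change (horizontal axis, miR-204-5p minus miR-NC on log2(FPKM + 1)) of the tested genes of each list (grey points), with the list median in red and the median of all genes tested, -0.02, as a dashed line. The metalloproteinases, TIMPs and BSG spread around 0 with a median of -0.02. Matrix substrates have a median of -0.23.

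The markers of pigment epithelium summed to 485 to 563 FPKM in miR-204-5p libraries and 543 to 565 FPKM in miR-NC libraries, mostly from keratins and ezrin. Of 16 markers 9 averaged at least 1 FPKM. KRT18 and EZR were the most abundant, with log2 fold changes of 0.11 and -0.52, and SERPINF1 had -0.36. The UTR of EZR holds an 8mer. RPE65, LRAT, PMEL, TYR, TYRP1, DCT and TTR were under 1 FPKM in every library, and TYR and TTR were at 0. RLBP1 (2.6 to 5.7 FPKM), BEST1 (3.1 to 7.5 FPKM) and OTX2 (3.2 to 9.7 FPKM) were above 1 FPKM in every library, and MITF averaged 1.52 FPKM. Of the fibroblast markers, ACTA2 had 0.41, COL1A1 0.30 and FAP 0.06. Of 10 immune and endothelial markers only CD68, a lysosomal protein, was tested, with -0.17, and their sum was 25.6 to 41.7 FPKM with miR-204-5p and 29.8 to 39.0 FPKM with miR-NC.

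The genes whose pattern over the 6 libraries was most like each gene were picked by Pearson's r of log2(FPKM + 1) among all genes tested. With so many candidates the highest values of r are close to 1 for any gene, so they are a description only. They were C9orf116, SRP54-AS1 and PIGQ for MMP1 (r from 0.983 to 0.993), and BTBD3, IMPA2 and PLSCR1 for MMP3 (0.994 each). TRA2A, POLR2A and GTPBP10 were most like MMP14 (0.989 to 0.996), and RNF130 and KLHL26 were among those most like MMP15 (0.974 and 0.968). SLC25A28, RBCK1 and EDF1 were most like TIMP1 (0.998 to 1.00), and LAMC1, DNAJC22 and CLSTN2 most like TIMP3 (0.996 to 0.997). CEBPD, KLHL22 and COLGALT1 were most like BSG (0.990 to 0.995). For MMP2 the pseudogene FRG1EP led (0.996), and for TIMP2 the pseudogene UBE2FP1 was among the leading 3 (0.990). The other genes most like MMP2, MMP15 and TIMP2 carry clone names only.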

How the data were processed

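RNA of 6 ARPE-19 libraries was measured as poly(A)-selected, strand-marked paired reads of 150 bases, per the labels' protocols. The authors deposited FPKM per gene and library, with 0.0001 in place of 0, which was read as 0 here. They also deposited a fold ratio per gene, its log2, a p-value and a q-value, and no source used here names the test behind them. With 0.0001 kept, the deposited fold ratio equals the ratio of mean FPKM within 1% in 100.0% of genes. The submitters' processing notes name HISAT2 2.0.4, StringTie 1.3.4d, DESeq2, edgeR and cutadapt 1.9, with GRCh38 as the build and no roles.

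The plan named a count test, and because the unit is FPKM the stated replacement was used. Genes with at least 0.5 FPKM in at least 3 libraries (13151 of 60612) entered 1 fit of log2(FPKM + 1) on treatment alone, with limma 3.58.1 under R 4.3.3 and a variance trend over intensity. P-values were adjusted over all of them after Benjamini and Hochberg, and 0.05 was the threshold. A positive fold change means a higher level with miR-204-5p. The fit was tested on simulated data, where it missed many of the changes put in, so a gene that is not called may still differ.

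As a rough guide to depth, the commonest product of FPKM and length among genes with 1 transcript was read as 1 pair. That gave about 19100000 to 21800000 pairs in miR-204-5p libraries and 20900000 to 23400000 in miR-NC libraries. MMP1 then rests on about 134 to 222 pairs and BSG on about 10500 to 15800. Because FPKM is relative, an RNA that fills 1 library lowers its other values.

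The 10 genes, the 12 other lists and the tests were chosen with earlier results of these data known. Besides the 10 genes, the text names from each list the 2 most abundant tested genes and the 2 with the smallest p. Of the genes this rule picks, 1 is not reported here. Others (ADAM19, FN1, PLG, PCOLCE, RECK, SLC12A5-AS1, SYN1, SYN3, RN7SK, the antisense gene at BSG and markers outside that rule) were chosen after their values were seen. Alternatives were another pseudocount, 2 other filters, 2 scalings, no trend, a replicate block and leaving out libraries. Python 3.11.15 made the site search and figures.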

Additional observations from a re-analysis of the deposited data

How the results depend on the processing

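None of the 10 genes and none of the genes of the other lists was called under any of the 14 alternatives. Over all genes the number called stayed at 0 except without miR-204-5p replicate 2, where 3 genes were called (RPS26P19, ABLIM3 and UCN2, none of them in a list), so leaving out single libraries gave 0 to 3; the cause was not tested. At an unadjusted p under 0.05 (limma) there were 273 genes, against 725 of 29806 without a filter, and 163 to 753 when leaving out single libraries. Genes whose groups did not overlap numbered 782, against 1647 without a filter and 1282 to 3129 when leaving out single libraries, as smaller groups separate more often. They numbered 3932 without replicate 3 of both groups, an alternative added after seeing the data. Leaving out libraries cannot make separated groups overlap, and the pseudocount, filters, trend and block keep the order of a gene's values. Only the 2 scalings could therefore have brought together the groups of MMP1, which did not overlap under any alternative run. Beside it, MMP2 did not overlap without miR-204-5p replicate 1, MMP14, TIMP2 and TIMP3 without miR-204-5p replicate 2, MMP15 without miR-NC replicate 1, and BSG without miR-NC replicate 3 and without replicate 3 of both groups, so that 1 to 4 of the 10 genes did so (2 without replicate 3 of both groups). The unadjusted p of MMP1 was under 0.05 in 5 of 14 alternatives, and its log2 fold change ran from 0.30 to 0.53. The 10 genes held 1 with an unadjusted p under 0.05, and 0 with median-of-ratios scaling, 0 with quantile normalization, 0 without replicate 3 of both groups, and 0 to 1 when leaving out single libraries.

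Of 126 values of the 9 tested genes under alternatives, 116 kept their direction. Leaving out single libraries, MMP3 ran from -0.27 to 0.17, MMP15 from -0.12 to 0.0506, TIMP1 from -0.0669 to 0.53 and TIMP2 from -0.59 to 0.15, while MMP1 (0.32 to 0.50), MMP2 (0.07 to 0.30), BSG (0.15 to 0.49), MMP14 (-0.19 to -0.06) and TIMP3 (-0.42 to -0.05) kept their sign. Without replicate 3 of both groups MMP15 was 0.0265 and TIMP2 0.0328. Of 488 values of the 35 other genes picked by the rule, 463 kept their direction. Those that turned when leaving out single libraries were MMP24 (-0.23 to 0.0911), MMP16 (-0.0358 to 0.12), ADAMTS12 (-0.19 to 0.0094), ADAMTS9 (-0.30 to 0.0292), CTSB (-0.24 to 0.0861), PPIB (-0.0604 to 0.44), PPIA (-0.0564 to 0.25), JUN (-0.39 to 0.0902), LAMB1 (-0.43 to 0.0327) and FAP (-0.18 to 0.22). After quantile normalization PPIA was -0.0804 and KRT18 -0.0078. Without replicate 3 of both groups CTSB was 0.0051, FAP -0.12 and COL1A1 -0.13.

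A fit with a replicate block called 0 genes, and 941 had an unadjusted p under 0.05 (limma). Between libraries of the same number, deviations from the group mean had correlations of 0.04 (replicate 1), 0.55 (replicate 2) and 0.52 (replicate 3), and no label ties a number to a shared day or batch. Libraries 2 and 3 of miR-204-5p correlated best with their own number and library 1 with miR-NC replicate 3 (0.16). With the block, MMP1 had an unadjusted p of 0.0333 and an adjusted p of 0.661 (limma). Depth limits what can be said of MMP9, which rests on at most 3.52 estimated read pairs.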
